A study of Mus musculus with 4 samples.

Results

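The mouse genes Ifitm1, Ifitm2, Ifitm3 and Ifitm6 were followed through the stages by which blood monocytes become macrophages in the colon, and between mice on chow diet and on high-fat diet (HFD). These 4 genes were selected on earlier results of the same cells, in which Ifitm1 was higher on HFD, so the diet values of these genes below are descriptions, and the calls counted among them support nothing. All 4 were found among the 11820 genes of the UMI matrix. The data came from 4 male C57/Bl6N mice, 6 to 7 weeks old and kept under SPF conditions, of which chow mice 9 and 11 received chow and HFD mice 1 and 3 received a coconut-based diet with 60% fat for 1 week. Live CD45+Lin-CD11b+CD24- cells of the colon that were Ly6C+ or CD64+ were sorted and loaded as 1 droplet library per mouse, so that the library and the mouse cannot be told apart. The deposited matrix held 904 and 2002 cells of the chow mice and 966 and 1548 cells of the HFD mice (5420 in all), with a median of 3266 to 3926 unique molecular identifiers (UMIs, 1 for each captured transcript) per cell.

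Ifitm genes encode small interferon-induced transmembrane proteins of the CD225 domain family. IFITM3, the best known member, sits in endosomal membranes and blocks the fusion of enveloped viruses such as influenza virus with the host cell, whereas IFITM1 lies mainly at the plasma membrane and IFITM2 resembles IFITM3. Ifitm6 is a rodent gene of the same cluster that is known from myeloid cells, and the role of its product is less well described. Colonic macrophages are replaced by Ly6C-high blood monocytes, which lose Ly6C, gain MHC class II and then, as resident macrophages, express the complement genes C1qa, C1qb and C1qc.

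The 4 genes lie within 63.1 kb of chromosome 7 (GRCm38, the build of mm10). In the GENCODE annotation, Ifitm2 (ENSMUSG00000060591) spans chr7:140954837-140955987 on the minus strand, Ifitm1 (ENSMUSG00000025491) chr7:140967221-140969825 on the plus strand, Ifitm3 (ENSMUSG00000025492) chr7:141009586-141010770 on the minus strand and Ifitm6 (ENSMUSG00000059108) chr7:141015699-141017924 on the minus strand. All 4 had an entry among the RefSeq promoters (GRCm38.p6, 250 bases before to 50 bases after the start), and these windows were searched on both strands for the core of the interferon-stimulated response element (GAAANNGAAA), for the core of the gamma-activated site (TTCNNNGAA) and for a TATA box (TATAAA). The bases from 130 to 31 before the RefSeq start are given for each gene, followed for Ifitm3 by the 30 bases from that start. They are given because the response element was matched near the start of only some of the neighbours. Capitals mark a match to the response element or the TATA box.
Ifitm1, chr7:140967946-140968045, plus strand: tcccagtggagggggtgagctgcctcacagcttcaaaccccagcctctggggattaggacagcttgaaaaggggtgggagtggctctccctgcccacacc
Ifitm2, chr7:140955992-140956091, minus strand: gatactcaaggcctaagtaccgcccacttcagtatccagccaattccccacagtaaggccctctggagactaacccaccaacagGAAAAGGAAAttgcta
Ifitm3, chr7:141010775-141010874, minus strand: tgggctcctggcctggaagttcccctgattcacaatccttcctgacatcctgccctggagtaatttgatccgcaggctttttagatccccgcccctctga
Ifitm3 from its start, chr7:141010715-141010744, minus strand: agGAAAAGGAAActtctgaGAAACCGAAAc
Ifitm6, chr7:141016923-141017022, minus strand: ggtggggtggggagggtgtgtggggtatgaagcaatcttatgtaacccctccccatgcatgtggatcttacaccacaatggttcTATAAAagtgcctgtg

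The response element core was matched once in the Ifitm2 window, at -46 to -37, and at 2 places in the Ifitm3 window, at 3 to 12 and 20 to 29 counted from the start. The same 10 letters, GAAAAGGAAA, made up the Ifitm2 match and the first Ifitm3 match. No match to these letters lay in the Ifitm1 and Ifitm6 windows. The windows follow the RefSeq starts, and those of Ifitm1 (chr7, position 140968076) and Ifitm6 (position 141016892) lie inside the GENCODE spans given above, so other starts of these genes were not searched. The core of the gamma-activated site was matched in Ifitm3 at 14 to 22, overlapping the second response element match, and in Ifitm6 at -10 to -2. A TATA box lay at -46 to -41 in Ifitm6, and its reverse complement at -175 to -170 in Ifitm2. Of all 32851 promoter windows in the table, 3.44% held the response element core, 8.30% the gamma-activated site core and 13.6% the TATA box. Of the 27 antiviral effector genes with a promoter entry, 55.6% held the response element core in any of their windows. So did 14.3% of the 14 interferon receptor and signalling genes and 0 of the 8 partner genes. These shares count genes and the 3.44% counts single windows, so the 2 kinds of share are not directly comparable. A match is a description of the sequence and does not show that a factor binds there.

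Cells were staged from Ly6c2, MHC II and C1q UMIs alone, and no Ifitm gene entered the gates. Cells with a Ly6c2 UMI and low MHC II and C1q were called monocytes (66 and 69 cells in chow mice 9 and 11, and 280 and 326 in HFD mice 1 and 3). Cells with Ly6c2 and MHC II but low C1q were called transitional (3, 18, 92 and 331 cells, in the same order), MHC II-high cells without Ly6c2 and with low C1q were called intermediate (26, 28, 98 and 174 cells), and MHC II-high C1q-high cells without Ly6c2 were called resident (714, 1674, 339 and 380 cells). The other 802 cells (14.8%) entered no stage. The gates were checked against monocyte genes that they did not use. The summed level of Ccr2, Plac8, Chil3, Vcan and F13a1 was 12740 to 25060 CPM (UMIs of a gene per 1000000 UMIs of the sum) in monocytes and 300.5 to 1960 CPM in resident cells, and all of these 5 genes were detected in the monocytes of every mouse. Of 5 plasma or B cell markers, a summed 7182 to 40870 CPM was found in the monocyte sums, nearly all of it in 5 cells, and without those cells it was 325 to 586 CPM. Stages were compared on summed counts per mouse. The 23 cell barcodes that 2 libraries shared covered 46 cells.

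Ifitm3 was the main Ifitm transcript of these cells, and it fell from monocytes over intermediate cells to resident macrophages. In monocytes its level was 9159 and 8067 CPM in chow mice 9 and 11 and 9060 and 9687 CPM in HFD mice 1 and 3. In transitional cells it was 3857, 4035, 4806 and 4662 CPM, and in intermediate cells 2986, 2357, 5251 and 4094 CPM. In resident cells it was 351, 494, 1381 and 1565 CPM. In each mouse the monocyte level was the highest and the resident level the lowest, whereas transitional and intermediate cells overlapped between mice. Of the UMIs of the 4 genes together, Ifitm3 held 69.6% to 98.5% in every stage and mouse (the libraries count transcripts at their 3' end, so these shares were not divided by length). An Ifitm3 UMI was found in 99.3% to 100% of monocytes and in 51.1% and 61.4% of the resident cells of the chow mice, where the median cell held 1 UMI. The cell with most Ifitm3 held 101 UMIs and was a transitional cell of HFD mouse 3.

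**Figure D1:**
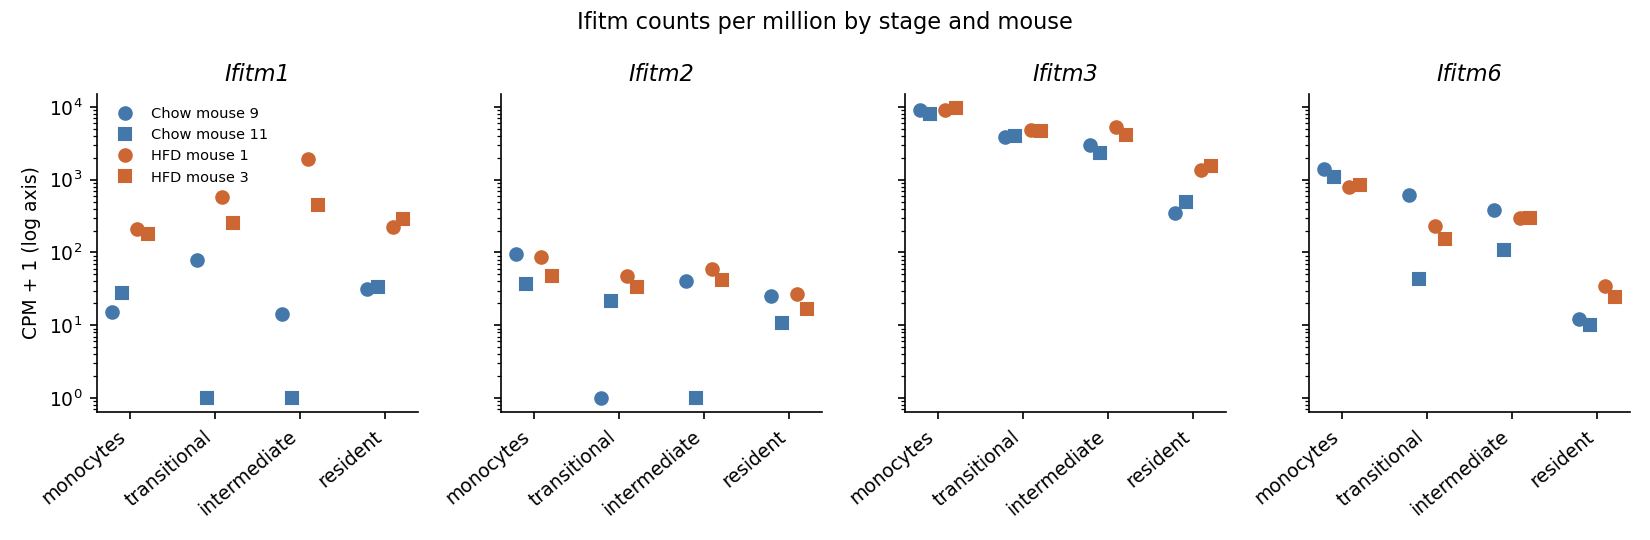
CPM plus 1 (log axis) of each Ifitm gene in the summed cells of each stage, with 1 point for each mouse, chow in blue and HFD in orange. Ifitm3 and Ifitm6 fall from monocytes to resident cells in all 4 mice. Ifitm1 separates the mice by diet in every stage, with only 1 and 0 chow UMIs in transitional and in intermediate cells. Points at 1 are sums without a UMI.

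Averaged over both diets and compared within mice, Ifitm3 was 3.34 higher on the log2 scale in monocytes than in resident macrophages (SE 0.12, n = 4 mice, adjusted p = 1.70e-24, edgeR quasi-likelihood test). It was 1.41 higher in monocytes than in intermediate cells (SE 0.12, adjusted p = 5.14e-12) and 1.93 higher in intermediate than in resident cells (SE 0.12, adjusted p = 6.60e-16). Across the alternatives run, the difference between monocytes and resident cells stayed between 3.04 and 3.51, whereas that between monocytes and intermediate cells ranged from 0.65, with stages set without MHC II, to 1.59.

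Ifitm6 had the steepest decline of the 4 genes. Its level in monocytes was 1397 and 1103 CPM in the chow mice and 793 and 838 CPM in the HFD mice. It was 617, 41.6, 229 and 154 CPM in transitional cells and 388, 106, 300 and 296 CPM in intermediate cells, where the value of chow mouse 9 rested on 29 UMIs and that of chow mouse 11 on 7. In resident cells it was 11.2 and 9.01 CPM in the chow mice, against 33.3 and 23.4 CPM in the HFD mice. The monocyte and resident levels thus lay far apart in every mouse, while in the stages between them the chow mice differed from each other. An Ifitm6 UMI was found in 71.8% to 81.8% of monocytes but in 2.81% to 10.0% of resident cells. Monocytes exceeded resident cells by 5.72 on the log2 scale (SE 0.15, n = 4 mice, edgeR). This value is a description, since Ifitm6 passed the filter on low counts only through the stages where it is high. The step from monocytes to intermediate cells (1.96, SE 0.16, adjusted p = 8.56e-13, edgeR) passed the test. That from intermediate to resident cells was 3.76 (SE 0.24), a description for the same reason. With stages set without MHC II the first of these steps was 0.58 (adjusted p = 0.00391, the highest over the alternatives, against a lowest of 1.24e-39), and the alternatives ranged up to 2.49 for it and from 5.13 to 7.78 between monocytes and resident cells.

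Ifitm2 was a minor transcript with a shallow decline. Its level was 95.7, 36.2, 86.6 and 46.0 CPM in monocytes and 24.2, 9.88, 25.8 and 15.6 CPM in resident cells of chow mice 9 and 11 and HFD mice 1 and 3. Chow mouse 9 and HFD mouse 1 were above the other mouse of their diet in both stages, and in each mouse the resident level was 25.3% to 33.9% of the monocyte level. The difference of 1.62 on the log2 scale between monocytes and resident cells passed the test (SE 0.27, n = 4 mice, adjusted p = 4.93e-06, edgeR). With 26 cells in each sum it was 2.35 and no longer passed (adjusted p = 0.114, edgeR). The difference between monocytes and intermediate cells did not pass (1.08, SE 0.45, adjusted p = 0.124, edgeR) and was 4.50 without chow mouse 9. That between intermediate and resident cells did not pass either (0.54, SE 0.54, adjusted p = 0.607, edgeR). Without chow mouse 9 it turned to -2.9. Only 3 and 0 Ifitm2 UMIs were counted in the intermediate cells of the chow mice, and in chow mouse 11 a count of 0 allows up to 45.6 CPM. Of the 31-base words in the last 500 bases of its GENCODE transcripts, 51.5% also occur in transcripts of other genes, against 26.6% for Ifitm1, 28.3% for Ifitm3 and 0% for Ifitm6, so the assignment of reads to Ifitm2 is the least certain of the 4.

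Ifitm1 did not follow the other members. Its level in resident cells (30.4, 33.0, 222 and 289 CPM in chow mice 9 and 11 and HFD mice 1 and 3) was above its level in monocytes (14.3, 27.1, 208 and 181 CPM) in all 4 mice, at 107% to 212% of the monocyte level, with 3 and 6 UMIs behind the chow monocyte values. Without cells that held a dendritic marker the order turned in HFD mouse 3, with 198 CPM in monocytes and 154 CPM in resident cells. The difference of -0.70 on the log2 scale, monocytes minus resident cells, was not past the threshold (SE 0.37, n = 4 mice, adjusted p = 0.144, edgeR). The contrasts of the intermediate cells were also not past it, with -0.40 (SE 1.28, adjusted p = 0.897) against monocytes and -0.31 (SE 1.01, adjusted p = 0.903) against resident cells. They could hardly be resolved, since the chow intermediate cells held 1 and 0 Ifitm1 UMIs.

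Of the 4 genes, 3 passed the 1% false discovery rate between monocytes and resident cells, where 26.0% of all genes tested did. Ifitm2, which is among them, did not pass with 26 cells in each sum. Between monocytes and intermediate cells 2 of 4 passed (6.76% of all genes), and between intermediate and resident cells 2 of 4 passed (7.72% of all genes). All 4 genes passed the filter on low counts in these fits. Ifitm6 did so only through the stages where it is high, since fewer than 5% of resident cells held a UMI of it. Its calls against resident cells, counted here, were thus favoured by the filter and support nothing.

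Most of the other listed genes of interferon-induced antiviral defence were also higher in monocytes. Of the 34 listed antiviral effectors, 25 passed the filter on low counts in some stage, and 16 of them passed it in resident cells. Of these 16, 13 were higher and 0 lower in monocytes than in resident cells, and their median difference was 1.31 on the log2 scale. Among all 5014 genes that passed in resident cells, 25.5% were called in either direction and the median was -0.08. The other 9 effectors were tested only because they passed in a stage where they are higher, which favours this direction, and 5 of them were called. Of the 25, the 4 with the largest rise were Oas3 (4.27, SE 0.48), Samhd1 (2.50, SE 0.11), Isg20 (2.46, SE 0.33) and Mx1 (2.04, SE 0.36). The product of Samhd1 degrades the nucleotides that viruses need, Isg20 is an exonuclease gene and Mx1 a GTPase gene. All but Samhd1 are among those 9. Of 11 tested interferon receptor and signalling genes, 4 were higher and 2 lower. Irf7, the regulator that amplifies type I interferon, had the largest rise (2.93, SE 0.14, adjusted p = 3.14e-21), followed by Stat2 (1.51, SE 0.31), Irf1 (0.62, SE 0.16) and the interferon-gamma receptor chain Ifngr1 (0.57, SE 0.11). The 2 lower genes were the type I interferon receptor chain Ifnar1 (-0.68, SE 0.16) and the feedback inhibitor Socs3 (-0.62, SE 0.11). These values average both diets. Socs3 was lower in monocytes than in resident cells on chow (454 and 416 against 1079 and 1042 CPM). On HFD it was higher in monocytes (886 and 810 against 718 and 572 CPM). Irf1 did not differ clearly on chow (90.9 and 103.9 against 88.2 and 131.5 CPM). On HFD it was higher in monocytes (525 and 581 against 179 and 152.5 CPM). Of 5 tested partner genes of the IFITM proteins, Cd81, a tetraspanin, passed, a share near that of all genes, and its log2 difference was -4.18 (SE 0.13, adjusted p = 4.18e-27, edgeR). Of the other CD225 genes, Ifitm5 and Tmem91 were in the matrix, and neither was abundant enough to be tested. Ifitm5, known from bone-forming cells, was counted 4 to 7 times in each mouse.

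**Figure D2:**
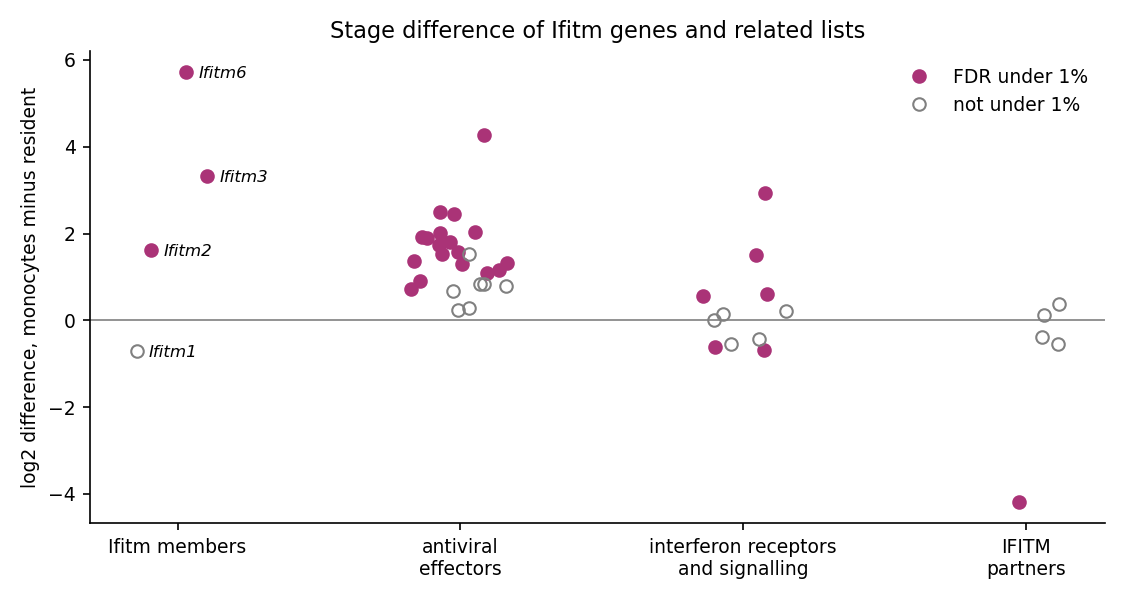
Log2 difference between monocytes and resident macrophages for the 4 Ifitm genes and for each tested gene of 3 related lists, with filled points at a false discovery rate under 1%. All 25 antiviral effectors lie above 0, of which 9 did not pass the filter on low counts in resident cells, Ifitm6, which did not pass it there either, lies at 5.72, and the low point among the partners is Cd81.

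Over the 14 sums with at least 20 cells, Ifitm3 and Ifitm6 had the most similar pattern of any pair of members (Pearson r = 0.95 of log2(CPM + 1)). For Ifitm1, r was 0.22 with Ifitm3 and 0.05 with Ifitm6, but 0.61 with Ifitm2. For Ifitm2, r was 0.48 with Ifitm3 and 0.51 with Ifitm6. The sums share mice and libraries, and these values are descriptions. The 3 other genes most like Ifitm3 were Gm9733 (r = 0.99), Ly6e, itself interferon-inducible (r = 0.98), and Tmsb10 (r = 0.97). Those most like Ifitm6 were Actg1 (r = 0.99), Alox5ap (r = 0.97) and Cdkn2d (r = 0.97). For Ifitm1 they were Bag6 (r = 0.94), Ndufb7 (r = 0.94) and Swi5 (r = 0.93), and for Ifitm2 St3gal4, Atg3 and Ubald2 (each r = 0.95), and for both members the sums of few or 0 UMIs weigh most in these values.

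On HFD, Ifitm1 was higher in every stage as counted, and no chow sum overlapped an HFD sum. In transitional cells this rests on 77.1 CPM (1 UMI in 3 cells) and 0 CPM (up to 62.4 CPM allowed) in the chow mice. The HFD mice had 574.7 and 254.5 CPM there, and the diets overlapped without cells that held a dendritic marker, as given below. In monocytes the chow mice had 14.3 and 27.1 CPM and the HFD mice 208 and 181 CPM. In resident cells the chow mice had 30.4 and 33.0 CPM and the HFD mice 222 and 289 CPM. The intermediate cells of the chow mice held 13.4 CPM (1 UMI) and 0 CPM (up to 45.6 CPM allowed), those of the HFD mice 1940 and 454 CPM. HFD mouse 1 thus stood well above HFD mouse 3 in this stage. The 9 T and NK cell markers summed to 80.3 and 60.8 CPM in the same chow sums and to 356 and 206 CPM in the HFD sums, with 7, 8, 6 and 1 of them at 0, and their part was not tested. The difference was 3.09 on the log2 scale in monocytes (SE 0.40, n = 2 mice each) and 2.87 in resident cells (SE 0.18). For intermediate cells the pooled ratio of HFD to chow was 150, with a 95% counting interval of 26.8 to 5910, since it rests on 1 chow UMI. An Ifitm1 UMI was found in 5.09% and 5.34% of all cells of the chow mice and in 32.1% and 23.6% of those of the HFD mice. After each cell was thinned to 1500 UMIs these shares were 2.84%, 2.72%, 19.6% and 17.2%, over the 844, 1802, 842 and 1347 cells that reached this depth. No cell type known to lack Ifitm genes was in the matrix, so the share that free RNA gives was not measured.

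Ifitm3 was level between diets in monocytes and higher on HFD in resident cells. In monocytes the chow values (9159 and 8067 CPM) and the HFD values (9060 and 9687 CPM) overlapped, with a log2 difference of 0.01 (SE 0.17). In intermediate cells the difference was 0.76 (SE 0.20), both HFD values lying above both chow values, but with stages set without MHC II it was -0.01. The make-up of the intermediate cells differed too, with 7 resident macrophage genes at a summed 18410 and 15430 CPM in the chow mice and 3244 and 3681 CPM in the HFD mice, and the monocyte check genes at 2075 and 3816 CPM and 5930 and 7174 CPM, and their part was not tested. In resident cells it was 1.67 (SE 0.17), and the HFD values of 1381 and 1565 CPM were well above the chow values of 351 and 494 CPM. The share of resident cells with an Ifitm3 UMI was 51.1% and 61.4% on chow and 85.5% and 87.9% on HFD.

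Ifitm6 went the other way in monocytes. Both HFD values (793 and 838 CPM) were below both chow values (1397 and 1103 CPM), and the log2 difference was -0.73 (SE 0.19). The make-up of the monocytes differed too. The monocyte check genes summed to 12740 and 17910 CPM in the chow mice and 25060 and 22950 CPM in the HFD mice. The 7 resident macrophage genes were at 5682 and 9735 CPM and at 3169 and 3815 CPM. The plasma or B cell markers were at 40870 and 26740 CPM and at 8926 and 7182 CPM, nearly all of it in 5 cells. Over 16 alternatives, which included leaving out cells rich in plasma or epithelial UMIs, the Ifitm6 difference ranged from -1.14 to -0.55. The part of this make-up in the diet values of monocytes, those of the listed interferon genes below included, was otherwise not tested. In intermediate cells Ifitm6 overlapped between the diets, with 0.19 (SE 0.34). Across the alternatives this value ranged from -0.94, with stages set without MHC II, to 1.43, and 11 of 14 were above 0. In resident cells both HFD values (33.3 and 23.4 CPM) were above both chow values (11.2 and 9.01 CPM), but Ifitm6 was found in fewer than 5% of these cells and was left out of that fit by the filter. From 80 HFD and 98 chow UMIs the pooled ratio was 2.88, with a 95% counting interval of 2.12 to 3.91. Ifitm2 overlapped between diets in monocytes and resident cells, with log2 differences of -0.09 (SE 0.45) and 0.20 (SE 0.45). In intermediate cells the difference was 1.15 (SE 0.93), on 3 chow UMIs.

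**Figure D3:**
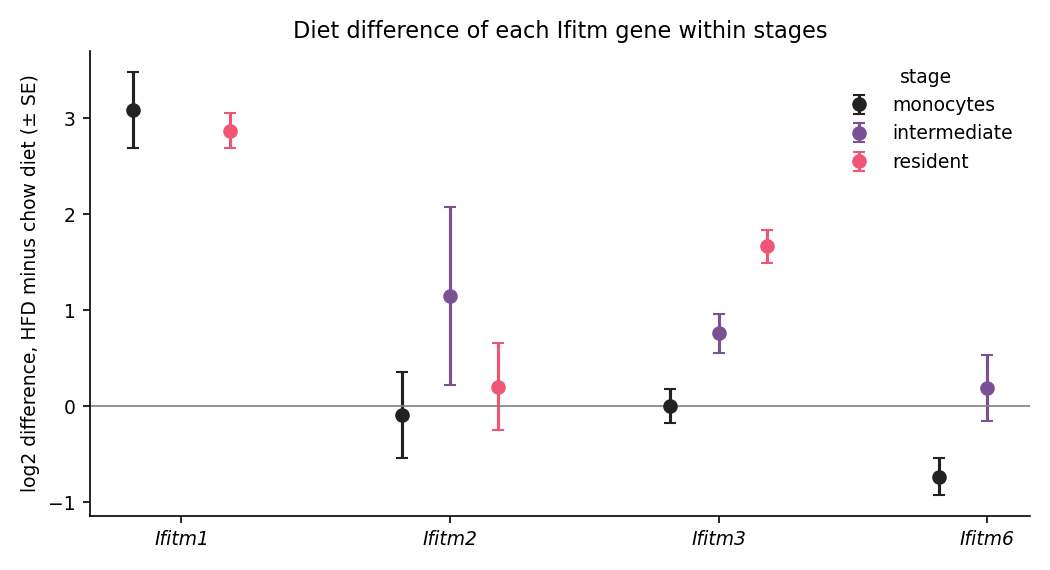
Log2 difference between HFD and chow diet (points, with bars of 1 SE) for each Ifitm gene within monocytes, intermediate and resident cells, from 2 mice per diet. Ifitm1 lies at 3.09 and 2.87, Ifitm3 moves from 0.01 in monocytes to 1.67 in resident cells, and the intermediate value of Ifitm1 (1 chow UMI) and the resident value of Ifitm6 (filtered out) are not drawn.

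At a false discovery rate of 1%, 1 of the 4 genes was called between diets in monocytes (1.08% of the 4520 genes tested), 1 of 4 in intermediate cells (2.11% of 4447) and 2 of the 3 that passed the filter in resident cells (8.54% of 5014). The genes called were Ifitm1 in each stage and Ifitm3 in resident cells. Since the diet effect of Ifitm1 was known when the family was picked, nothing is read from these counts. In the intermediate cells Ifitm1 passed the filter through the HFD mice alone.

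The diet difference was also set against the stage within mice. The monocyte diet difference, known when the genes were picked, is a term of each of these values, so they are given as descriptions. For Ifitm3 the diet difference in monocytes minus that in resident cells was -1.56 on the log2 scale (SE 0.23). For Ifitm6 it was -1.95 (SE 0.31), on 36 to 62 resident UMIs per mouse. For Ifitm1 it was 0.25 (SE 0.80) and for Ifitm2 -0.14 (SE 0.52), with errors that leave room for sizable differences. Past the 1% false discovery rate of edgeR were 2 of 4 genes, Ifitm3 and Ifitm6, and 1.17% of all genes, and nothing is read from this count. With each sum cut to 26 cells the value of Ifitm6 was -4.04 and was no longer past it. Between monocytes and intermediate cells 0 of 4 genes passed with edgeR, where 0.0911% of all genes did, and 0 of 4 passed with DESeq2. At an unadjusted p under 0.05 there were 3 of them, where 10.0% of all genes were. These were Ifitm1 (-4.11, SE 1.74, on 1 UMI in the chow intermediate cells), Ifitm3 (-0.80, SE 0.24) and Ifitm6 (-1.0, SE 0.33).

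The higher resident levels of Ifitm3 and Ifitm6 on HFD came with higher levels of 4 of the 5 monocyte check genes in the same cells, Plac8, Chil3, Ccr2 and Vcan, but not of F13a1. The resident level of Ifitm3 was 3.83% and 6.12% of the monocyte level of the same mouse on chow and 15.2% and 16.2% on HFD. For Ifitm6 the values were 0.80% and 0.82% on chow and 4.20% and 2.79% on HFD. Plac8, a gene of circulating monocytes, was at 0.76% and 1.04% on chow and at 9.46% and 9.75% on HFD, and Chil3, which encodes a chitinase-like protein, was at 0.29% and 0.55% on chow and at 2.12% and 2.86% on HFD. Ccr2, the receptor by which monocytes leave the bone marrow, was at 34.5% and 30.6% on chow and at 40.9% and 46.4% on HFD. Vcan was at 0% and 0.89% on chow and at 2.87% and 1.81% on HFD, with resident levels of at most 3.03 CPM. F13a1 overlapped between the diets, with 19.5% and 30.2% on chow and 26.9% and 17.3% on HFD, at resident levels of 3.73 to 6.83 CPM. Ifitm2 differed less between the diets than Ifitm3 and Ifitm6, with 25.3% and 27.3% on chow and 29.7% and 33.9% on HFD. The summed level of 7 resident macrophage genes that the gates did not use was 63090 and 61130 CPM in the resident cells of the chow mice and 25700 and 19650 CPM in those of the HFD mice. The part that the make-up of the resident gate has in the diet values of resident cells, those of the listed interferon genes below included, was not tested.

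**Figure D4:**
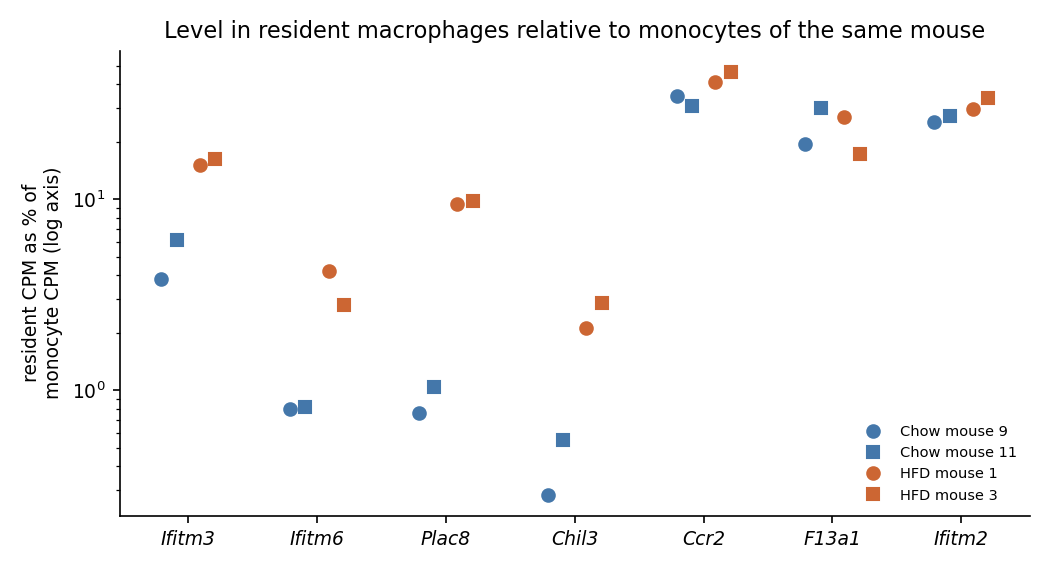
Level in resident macrophages as a percentage of the level in monocytes of the same mouse (log axis) for 3 Ifitm genes and 4 monocyte genes, with 1 point per mouse. Ifitm3, Ifitm6, Plac8 and Chil3 lie well higher in both HFD mice than in both chow mice, Ifitm2 and Ccr2 lie slightly higher, F13a1 overlaps between the diets, and Vcan is not drawn since it was at 0 in the resident cells of chow mouse 9.

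Ifitm1 transcripts were concentrated in few cells. At least 10 Ifitm1 UMIs were found in 82 cells, of which 75 were in HFD mice (35 and 40) and 7 in chow mice (2 and 5), and a single cell of HFD mouse 1 held 115. These cells made up 3.62% and 2.58% of the cells of HFD mice 1 and 3 and held 64.3% and 53.3% of their Ifitm1 UMIs. The share was highest among intermediate cells, where 17 of 98 cells of HFD mouse 1 (17.3%) and 8 of 174 cells of HFD mouse 3 (4.60%) reached 10 UMIs and held 85.4% and 66.8% of the Ifitm1 UMIs. Among monocytes of the HFD mice, 5 of 280 and 1 of 326 cells did, and they held 30.4% and 7.34%.

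**Figure D5:**
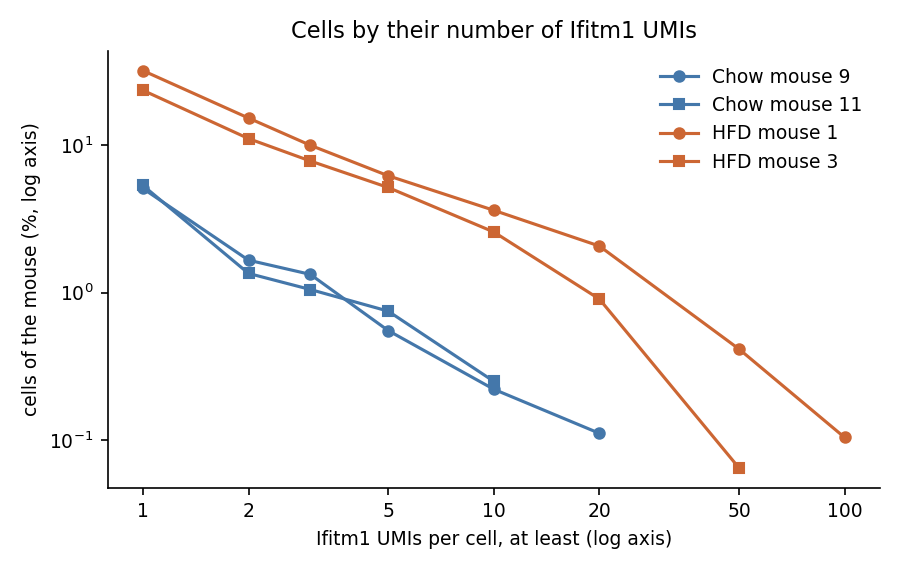
Percentage of the cells of each mouse (log axis) with at least the given number of Ifitm1 UMIs (log axis). The HFD mice lie above the chow mice from 1 to 10 UMIs, with 32.1% and 23.6% against 5.09% and 5.34% of cells at 1 UMI or more.

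The 75 Ifitm1-rich cells of the HFD mice, a group set after the values were seen and so described without a test, also carried more UMIs of some genes that mark dendritic cells. Of the 8 dendritic markers listed, a summed 1098 CPM was found in these cells and 165 CPM in the 1839 HFD cells without Ifitm1. Cd209a, a C-type lectin gene, was at 566 against 60.1 CPM, Ccr7, the receptor that guides migration to lymph nodes, at 449 against 81.8 CPM, and Flt3, a growth factor receptor of dendritic cells, at 52.3 against 5.81 CPM. Cd209a and Ccr7 made up most of the sum. Clec9a (4.75 against 5.34 CPM) and Siglech (0 against 2.35 CPM) were not higher. Ifitm3 was at 6928 against 4073 CPM and Ifitm6 at 421 against 261 CPM, and the median depth was 5327 against 3169 UMIs per cell. These values pool the stages, and 17 and 8 of the rich cells of HFD mice 1 and 3 were intermediate cells. Intermediate cells with and without any Ifitm1 UMI had dendritic sums of 1408 and 550 CPM in HFD mouse 1. In HFD mouse 3 these were 1452 and 430 CPM. In resident cells they were 207 and 207 CPM and 227 and 155 CPM. In monocytes they were 85.8 and 63.2 CPM and 140 and 68.7 CPM. In transitional cells they were 428 and 211 CPM and 674.5 and 203 CPM. In the 7 Ifitm1-rich cells of the chow mice, all 8 dendritic markers were at 0. In so few cells this cannot be told from the summed 87.8 CPM of the chow cells without Ifitm1.

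Among intermediate cells as a whole, the summed dendritic markers reached 696 and 426 CPM in the chow mice, against 1085 and 773 CPM in the HFD mice, with Siglech and Itgae at 0 in all 4 mice. In resident cells they reached 75.4 and 86.8 CPM in the chow mice, against 207 and 175 CPM in the HFD mice, and in monocytes 124 and 109 CPM, against 71.3 and 86.9 CPM. Most of the resident HFD sum was Ccr7, with a mean of 12.5 CPM on chow and 145 CPM on HFD. Cd209a (25.7 and 20.7 CPM), Flt3 (1.81 and 2.16 CPM) and Zbtb46 (1.52 and 1.46 CPM) showed no such rise there. Ifitm1 was then counted without any cell that held a UMI of a listed dendritic marker. In intermediate cells 1 and 0 UMIs were left in the chow mice, while the HFD mice had 920 and 188 CPM. In monocytes the chow mice had 16.9 and 30.8 CPM and the HFD mice 200 and 198 CPM. In resident cells the chow mice had 30.8 and 33.1 CPM and the HFD mice 261 and 154 CPM. In these 3 stages both HFD values thus lay above both chow values with these cells left out. In transitional cells they did not, with 121 CPM (1 UMI in 2 cells) and 0 CPM in the chow mice and 130.5 and 118 CPM in the HFD mice, where the cells with a dendritic marker held 213 of 246 and 199 of 294 Ifitm1 UMIs. The intermediate levels of Ifitm6 and Ifitm3 were also lower when these cells were left out. Ifitm6 was then at 126, 42.7, 77.9 and 84.6 CPM in chow mice 9 and 11 and HFD mice 1 and 3, and Ifitm3 at 2103, 2007, 3723 and 2671 CPM.

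Within the HFD mice, monocytes with and without an Ifitm1 UMI had like levels of Ifitm3 and Ifitm6. Ifitm3 was at 9786 and 8656 CPM in HFD mouse 1 and at 9650 and 9699 CPM in HFD mouse 3, with and without Ifitm1, and Ifitm6 at 802 and 788 CPM and at 808 and 849 CPM. Ifitm2 was at 85.8 and 87.1 CPM in HFD mouse 1 and at 64.0 and 39.8 CPM in HFD mouse 3. In intermediate cells the cells with Ifitm1 had more of both. There Ifitm3 was at 6448 against 3273 CPM in HFD mouse 1 and at 6057 against 3102 CPM in HFD mouse 3, and Ifitm6 at 414 against 112 CPM and at 484 against 200 CPM. These intermediate cells with Ifitm1 were also deeper, with a median of 4024 against 2743 UMIs in HFD mouse 1. In HFD mouse 3 it was 3117 against 2148 UMIs. Their summed dendritic markers were higher too, as given above. The part of depth and of these markers was not tested. In resident cells with and without Ifitm1, Ifitm3 was at 1836 against 1169 CPM and at 2025 against 1383 CPM. Ifitm6 was there at 30.9 against 34.5 CPM in HFD mouse 1 and at 27.5 against 21.7 CPM in HFD mouse 3.

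The gene lists were also chosen with earlier results of these data known, so their diet values and calls are given as descriptions. Of the listed genes tested, 4 were called between the diets in monocytes, where 1.08% of all genes were. Of 10 tested interferon receptor and signalling genes, Irf1 was higher on HFD (2.38 on the log2 scale, SE 0.25, adjusted p = 5.10e-06, edgeR, n = 2 mice each) and none was lower. Of 25 tested antiviral effectors, 2 were higher, the nucleic acid sensor Zbp1 (1.45, SE 0.23, adjusted p = 7.34e-04) and Samhd1 (1.25, SE 0.19, adjusted p = 6.26e-04), and none was lower. Of the 5 partner genes Cd81 was lower (-2.71, SE 0.26, adjusted p = 1.71e-06). In resident cells 5 of 16 tested effectors were higher and 0 lower (8.54% of all genes were called, in either direction), and in intermediate cells 2 of 18 were higher and 0 lower (2.11% of all genes). Of 10 tested receptor and signalling genes in resident cells 1 was higher and 1, Socs3, lower (-0.85, SE 0.15, adjusted p = 0.0045). Irf7 was 2.50 higher on HFD on the log2 scale in resident cells (SE 0.23, adjusted p = 1.79e-04), and its diet difference was smaller in monocytes than in resident cells (value -2.39, SE 0.26, adjusted p = 2.81e-08). The same held for Zbp1 (-1.36, SE 0.27, adjusted p = 0.00175) and Ifi27l2a (-1.19, SE 0.19, adjusted p = 7.25e-05), whereas Irf1 (2.03, SE 0.29, adjusted p = 8.69e-06) and Socs3 (1.80, SE 0.22, adjusted p = 2.15e-07) had values in the other direction. In all, 2 of 25 effectors were called with a lower and 0 with a higher diet difference in monocytes, and of 11 receptor and signalling genes 1 and 2, where 1.17% of all genes were called (45 lower and 19 higher).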

How the data were processed

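The authors aligned droplet reads (10x 3' v2) with kallisto 0.46.0 and bustools 0.39.2, and kept cells by library size, detected genes, mitochondrial share and automated annotation as macrophages or monocytes. They deposited raw UMI counts per gene and cell. Ensembl identifiers were named from GENCODE M21 (11819 of 11820 matched), and each cell's mouse was read from its name. The members and gene lists were chosen with earlier results of these data known.

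MHC II and C1q UMIs per 10000 were split by Otsu's threshold (203.7 and 23.84), and 325 and 198 cells lay within 1.5 times of them. Counts were summed per mouse and stage with at least 20 cells in every mouse, so transitional cells were given as values only. The sums held 65768 to 6880907 UMIs. Genes needed a CPM above 1 in at least 2 sums and a UMI in 5% of the cells of a stage. edgeR 4.0.16 (R 4.3.3; TMM, quasi-likelihood test, Benjamini-Hochberg) compared stages and the diet difference between stages with mouse as a block (12 sums), and diets within each stage (4 sums), as the study fitted clusters. The mice are separate animals, each with 1 library. SEs were taken as the log2 difference over the square root of F. With 2 mice per diet an exact permutation test cannot go below p = 0.33. Alternatives included DESeq2 1.42.0, other gates, fewer cells and each mouse left out, and those without dendritic-marker, plasma or epithelial cells were chosen after seeing the data. Scrublet marked 38 cells (0.701%) as doublets, which were kept. Intervals (95%, exact) cover counting error only, and a count of 0 is taken to allow 3. The named genes were the 4 members, the 3 genes most like each by Pearson r and up to 4 called genes of each list in each direction. The fits were tested on simulated data. A gene of the signalling list and a gene of the monocyte check list are not reported here and were left out of their lists.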

Additional observations from a re-analysis of the deposited data

Results flagged for a closer look

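The diet-by-stage values of 2 members, monocytes minus resident macrophages, stand out from the rest as descriptions. The genes were picked with the diet difference known, so the fit is no independent test of them. For Ifitm3 the value was -1.56 on the log2 scale, from a diet difference of 0.01 in monocytes and 1.67 in resident cells. For Ifitm6 it was -1.95, with HFD below chow in monocytes and above it in resident cells, and the value of Ifitm6 rests on few resident UMIs.

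Transitional cells, which were too few in the chow mice (3 and 18 cells) to enter a test, also held Ifitm1. Its level there was 574.7 CPM in HFD mouse 1 and 254.5 CPM in HFD mouse 3. Against these stood 77.1 CPM (1 UMI) and 0 CPM (up to 62.4 CPM allowed) in chow mice 9 and 11. Without cells that held a dendritic marker the HFD values were 130.5 and 118 CPM, and the 1 chow UMI then made 121 CPM.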

How the results depend on the processing

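With 2 mice per diet and few chow cells before the resident stage, small diet differences and low counts were not resolved. No paired analysis was possible because the diets share no replicate number. Ifitm3 and Ifitm6 kept their direction and their call between monocytes and resident cells under all 16 alternatives. The filter on low counts, where it was used, favoured the calls of Ifitm6. With 26 cells in each sum, Ifitm2 between monocytes and resident cells was 2.35 (adjusted p = 0.114, range 1.81e-10 to 0.114) and the diet difference between these stages was -4.04 for Ifitm6, -2.38 for Ifitm1, and 0.05 for Ifitm6 against intermediate cells. The intermediate stage dropped out with the lower C1q limit and without dendritic-marker cells.

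Diet differences of members moved as follows. With gates that ignored MHC II, they were 3.58, -0.24 and -1.14 in monocytes for Ifitm1, Ifitm3 and Ifitm6, and 6.28, -0.01 and -0.94 in intermediate cells. With equal cells they were 6.35, 0.45 and -0.54 in intermediate cells, and 3.61 for Ifitm1 in resident cells. Without the filter on low counts, Ifitm3 was 0.18 in monocytes and 1.06 in intermediate cells. Without dendritic-marker cells, Ifitm1 in resident cells was 2.56. The diet difference of Ifitm2 between monocytes and resident cells was 0.04 with at least 2 Ly6c2 UMIs. Ifitm1 between intermediate and resident cells was 0.04 without MHC II and 0.05 with equal cells.

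Each mouse was left out in turn, and the lone mouse of its diet was then taken to vary like the others. Ifitm1 ranged from -1.14 to 2.87 between monocytes and intermediate cells and from -3.41 to 0.26 between intermediate and resident cells, and Ifitm2 from -2.9 to 0.78 in the latter. The extremes 2.87, -3.41 and -2.9 came without chow mouse 9. The diet-by-stage value of Ifitm1 against resident cells ranged from -0.07 to 0.78. Diet differences ranged from 2.72 to 3.65 (Ifitm1) and -0.62 to 0.76 (Ifitm2) in monocytes, from 5.83 to 11.53, 0.25 to 6.94, 0.55 to 0.95 and -0.42 to 1.43 in intermediate cells (Ifitm1, Ifitm2, Ifitm3 and Ifitm6), and from -0.38 to 0.92 (Ifitm2) and 1.45 to 1.94 (Ifitm3) in resident cells.

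Counts of genes called moved more. Between monocytes and intermediate cells 371 genes were called, 93 without MHC II, 138 with equal cells and 151 to 302 with a mouse left out (151 without chow mouse 9). Between intermediate and resident cells there were 424, against 815, 100 and 240 to 331 (240 without chow mouse 9). Between monocytes and resident cells there were 1428, against 389 with equal cells. For diet by stage against intermediate cells the count was 5, with DESeq2 1, the likelihood-ratio test 9, no filter 13, Ly6c2 at 2 UMIs 2, the higher C1q limit 9, no MHC II 0, and a mouse left out 0 to 3. Against resident cells it was 64, with the likelihood-ratio test 112, the lower C1q limit 42, equal cells 15, and 29 to 48 with a mouse left out (29 without chow mouse 11). Between diets, 49 genes were called in monocytes (likelihood-ratio test 99, no filter 127, equal cells 27, a mouse left out 46 to 119, the latter without chow mouse 11). In intermediate cells there were 94 (DESeq2 37, equal cells 57, a mouse left out 36 to 112, the former without HFD mouse 1). In resident cells there were 428 (likelihood-ratio test 759, no filter 747, a mouse left out 74 to 748, the former without HFD mouse 3). With plain library totals in place of TMM, the median over all genes between monocytes and resident cells moved from -0.04 to 0.13 and 65.1% of the calls were then higher. The share of higher calls moved from 34.0% to 66.1% between intermediate and resident cells, from 53.0% to 68.1% for diet in resident cells, from 71.4% to 81.0% for diet in monocytes, and from 29.7% to 18.6% for diet by stage against resident cells. The cause of these shifts was not tested.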

Other observations

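The resident gate also held the few Ifitm1-rich cells of the chow mice. All 7 chow cells with at least 10 Ifitm1 UMIs were resident cells, in which Ifitm2 and Ifitm6 were at 0. In so few cells a 0 cannot be told from the 16.6 and 81.5 CPM of the 2753 chow cells without Ifitm1. Ifitm3 was at 1480 CPM in the 7 cells and at 952 CPM in those 2753 cells, which pool the stages. The resident cells of chow mice 9 and 11 as a whole were at 351 and 494 CPM. Of the 802 cells outside the stages, those of HFD mouse 3 included 9 with at least 10 Ifitm1 UMIs and those of HFD mouse 1 included 0.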
